A study of Mus musculus and Rattus norvegicus with 37 samples.

Results

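The transcription regulators of lipogenesis examined here were 10 genes, taken by symbol: Srebf1, Mlxipl, Mlx, Nr1h3, Nr1h2, Pparg, Usf1, Usf2, Txnip and Arrdc4. Each symbol was found once among the 47929 unique gene names of the mouse tables and once among the 28026 of the rat tables. Liver RNA was sequenced from 37 animals, 21 mice and 16 rats, and the values below are normalized counts, that is, estimated reads per gene divided by a size factor of the library. Chow-fed female mice received 1 subcutaneous injection of LNA29 or of saline, and fed livers were taken on day 7. LNA29 is a mixture of locked nucleic acid oligonucleotides against miR-29a and miR-29b/c, given at 20 mg/kg each.

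The first mouse set, WT/Floxed, pooled C57BL/6J wild-type mice aged 9 to 11 weeks with floxed control mice aged 15 to 20 weeks. It held 8 LNA29 livers (4 WT and 4 floxed) and 5 saline livers (3 WT and 2 floxed). The second mouse set held 4 LNA29 and 4 saline livers from mice aged 15 to 20 weeks labelled L-Sirt1 KO, in which liver Sirt1 was to be deleted. The promoter driving Cre was not given in the sources used here. The rats were males. Zucker Fatty rats (ZFR), obese through a mutation of the leptin receptor, and Zucker Lean rats (ZLR) were compared on chow at 5.5 months with 4 livers each. A second set of ZFR aged 3 months received BT2, an inhibitor of the kinase that restrains branched-chain keto acid dehydrogenase, by daily intraperitoneal injection at 20 mg/kg for 1 week, or its DMSO vehicle, again with 4 livers each. Every rat in that set was therefore obese, and no lean rat received BT2. The diet of that set was not given in the sources used here.

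SREBP1c, encoded by Srebf1, is the insulin-responsive activator of fatty acid synthesis genes in hepatocytes. ChREBP (Mlxipl) answers to glucose metabolites and binds DNA as a dimer with MLX. The liver X receptors LXR-alpha (Nr1h3) and LXR-beta (Nr1h2) sense oxysterols and raise transcription of Srebf1. PPAR-gamma (Pparg) promotes fat storage and is low in lean liver and high in adipocytes. USF1 and USF2 bind E-boxes of lipogenic promoters. Txnip and Arrdc4 encode alpha-arrestins that restrain glucose uptake, and they are classic targets of the ChREBP and MLX dimer and its relative MondoA, so their mRNA is often read as a report on glucose sensing.

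The agent inhibited 3 microRNAs with a shared seed, and the mature mouse sequences (RefSeq, GRCm38.p6) are shown because every LNA29 comparison rests on them. The capitals mark the seed, bases 2 to 8 from the 5′ end. These mature sequences lie on chromosome 6 at chr6:31062673-31062694 (miR-29a, minus strand) and chr6:31063025-31063047 (miR-29b, minus strand), and on chromosome 1 at chr1:195037091-195037113 (miR-29b, plus strand) and chr1:195037600-195037621 (miR-29c, plus strand).
mmu-miR-29a-3p: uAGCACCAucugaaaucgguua
mmu-miR-29b-3p: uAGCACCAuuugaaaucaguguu
mmu-miR-29c-3p: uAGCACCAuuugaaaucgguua

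The match to this seed, TGGTGCT, was looked for in every mouse 3′ UTR of the GENCODE annotation of GRCm38, because a regulator that carries it could answer to the inhibitor directly. It was found in 2905 of 21020 genes (13.8%), and in 1 of the 10 regulators, Arrdc4. The Arrdc4 match lies at chr7:68738096-68738102 on the minus strand (GRCm38), 1375 bases after the stop codon in a UTR of 2482 bases, and it lacks the A that would make it an 8-base site. The longest 3′ UTRs of the other regulators run from 204 bases in Pparg to 1354 bases in Txnip. A seed match is a description of the letters and not a measured site.
Arrdc4 3′ UTR: tttagaaacccTGGTGCTtcccaggcaga

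The promoter letters that ChREBP and the USF proteins are known to bind were also searched, on both strands, in RefSeq windows from 250 bases before to 50 bases after a start site (GRCm38). The windows covered 9 regulators, and Usf2 had no entry. The E-box CACGTG was in 7.15% of 32851 windows and in those of Mlxipl, Arrdc4 and Mlx. A pair of CACGNG elements 5 bases apart, the spacing of a carbohydrate response element, was in 16 of 32851 windows (0.0487%) and, among the regulators, in that of Txnip. The sterol regulatory element as it stands in the LDL receptor promoter (0.0913% of windows) and the direct repeat of AGGTCA with 4 bases between, read by LXR (0.0152%), were in none of the regulators' windows, which says only that these letters are not there. A site of the same factors with other letters, in the Srebf1 windows or elsewhere, would be missed by this search. The shorter sterol element core TCACNCCAC, whose letters the longer element contains, was in 1.24% of windows and in 1 window of Mlxipl. The 4 matched stretches are shown with the motif in capitals, at chr5:135089762-135089827 (Mlxipl, plus strand), chr11:101087220-101087285 (Mlx, plus strand), chr3:96557842-96557918 (Txnip, plus strand) and chr7:68749396-68749461 (Arrdc4, minus strand).
Mlxipl: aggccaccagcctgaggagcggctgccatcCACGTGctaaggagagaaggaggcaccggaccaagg
Mlx: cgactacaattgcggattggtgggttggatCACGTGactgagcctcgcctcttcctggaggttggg
Txnip: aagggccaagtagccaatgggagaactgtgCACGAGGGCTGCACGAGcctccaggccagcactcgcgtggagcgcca
Arrdc4: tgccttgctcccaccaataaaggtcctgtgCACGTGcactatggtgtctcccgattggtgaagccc

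In the genome build used (GRCm38), Srebf1 is at chr11:60199089-60222581 and Mlx at chr11:101087277-101092207, while Mlxipl lies at chr5:135089890-135138382. Nr1h3 is at chr2:91184061-91202834, Nr1h2 at chr7:44549616-44553951 and Pparg at chr6:115360951-115490399. Usf1 is at chr1:171411313-171419142, Usf2 at chr7:30945248-30956803, Txnip at chr3:96557957-96561883 and Arrdc4 at chr7:68736995-68749241. Whole genes overlap others in places, and the strand setting of the counting was not given in the sources used here. The full 3927 bases of Txnip lie opposite Gm15441, whose mean count was 0.208% to 0.679% of that of Txnip in the 4 mouse groups. Usf1 shares 271 bases on the same strand with Tstd1, whose mean count was 45.7% to 82.5% of that of Usf1, so the split of reads between them is uncertain. Rai1, opposite the end of Srebf1 over 109 bases, stood at 3.61% to 5.32% of Srebf1.

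Depth differed between the species. The mouse libraries held an estimated 42600000 to 78000000 reads, and 1 read was worth 0.746 to 1.37 normalized counts. The rat libraries ran from 188000 to 58500000 reads, and 4 of the 16 held under 500000 reads, namely ZLR replicates 3 and 4, ZFR vehicle replicate 4 and ZFR BT2 replicate 4. In these a single read was worth up to 10.5 normalized counts. Sirt1 itself overlapped between the mouse sets, with 534.6 to 616.5 normalized counts in libraries labelled L-Sirt1 KO against 492.7 to 699.1 in WT/Floxed. The means were 586.0 against 590.5 with saline and 562.0 against 607.2 with LNA29. The sets were normalized separately, so these levels are not strictly comparable. A gene-level count does not separate a deleted exon, so the label is used below as given and no direction rests on it. The study also compared hepatic Sirt1 between these mouse sets by RT-qPCR, a measure that is not among the counts used here. The labelled tissue was checked with hepatocyte markers (Alb, Apoa1, Ttr, Apob and Hnf4a), which summed to at least 4218500 normalized counts in each mouse library and at least 170039 in each rat library. The samples were labelled as separate animals of each group, so the p-values rest on the spread between animals, with counting error included in it.

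Per kilobase of exon, the saline WT/Floxed livers held the most Srebf1, with 2692 ± 454 normalized counts per kb (SD, n = 5). Nr1h3 followed with 2353 ± 269, Mlxipl with 2256 ± 554 and Txnip with 1879 ± 976 normalized counts per kb, and the ranges of neighbours in this order overlapped down to Usf2 (1372 ± 114). Mlx held 790 ± 151 per kb, with every library below the lowest of Usf2. Nr1h2 (646 ± 47.8), Usf1 (498 ± 50.8), Arrdc4 (315 ± 51.1) and Pparg (212 ± 13.1) closed the order. Mlx and Nr1h2 overlapped, and the ranges of Nr1h2, Usf1, Arrdc4 and Pparg did not touch. By this measure Nr1h3 mRNA exceeded Nr1h2 mRNA, and Usf2 mRNA exceeded Usf1 mRNA, with ranges that did not overlap.

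The regulators differed as much in how stable they were from liver to liver. Txnip had a coefficient of variation of 28.3% to 53.4% across the 4 mouse groups, and Srebf1 one of 16.9% to 41.9%. Usf2 varied by 6.16% to 9.85% and Nr1h2 by 6.25% to 11.98%. A response of a given size was therefore harder to see in Txnip and Srebf1 than in the receptors and USF proteins. The plot of mouse values by group shows these spreads.

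**Figure D1:**
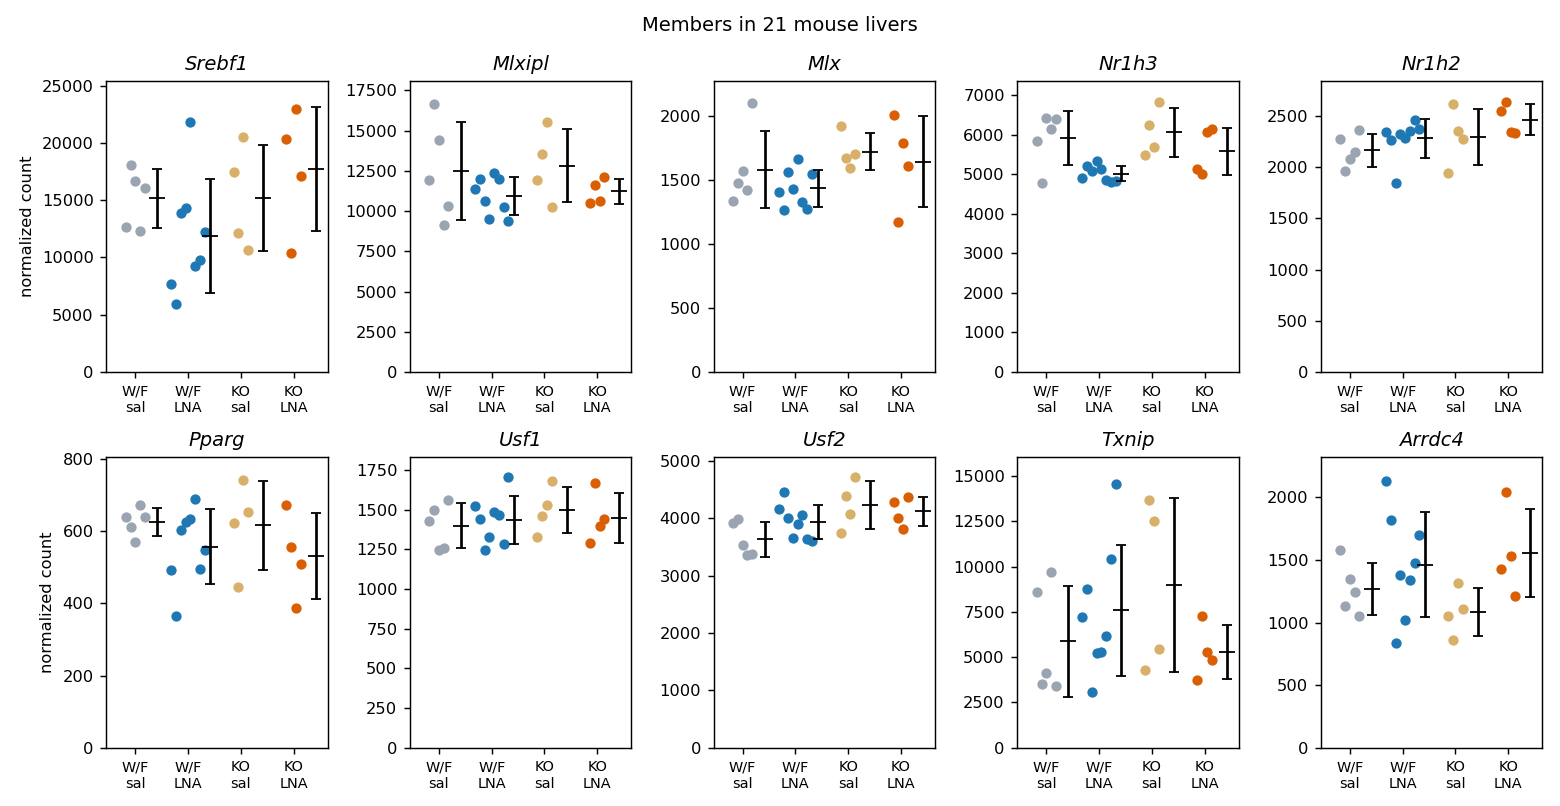
Normalized counts of each of the 10 regulators in the 21 mouse livers (y axis, 1 panel per gene), by group on the x axis, with 1 point per liver and bars at the mean ± SD. The groups overlap in every panel, and Txnip and Srebf1 show wide spreads within a group.

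Does inhibition of miR-29 change the regulators? In mice a gene was called when limma gave p under 0.05 and adjusted p under 0.2 (over all genes tested), its mean exceeded 50 normalized counts and it differed by more than 1.2 times. In WT/Floxed livers 688 of 15811 genes (4.35%) were called, and 0 of the 10 regulators were. In livers labelled L-Sirt1 KO 297 of 15885 genes (1.87%) were called, again with 0 of 10 regulators. These counts over all genes moved with single libraries. The 688 ran from 381 to 1006 with each library left out in turn, and was 451 without saline replicate 1 and 406, 443 and 381 without LNA29 replicate 6, 7 and 8. The 297 ran from 77 to 426, and was 85, 87 and 77 without LNA29 replicate 2, 3 and 4 and 165 and 133 without saline replicate 2 and 4. The groups did not overlap for 1.51% of all genes in WT/Floxed and for 6.95% in L-Sirt1 KO, and they overlapped for each regulator. The median log2 fold change of the regulators was -0.05 and -0.07, beside 0.00 and 0.00 over all genes tested, and 1 of 10 had an unadjusted p under 0.05 in each set (Nr1h3 and Arrdc4), where 13.3% and 11.2% of all genes tested had one. Over the same tables, genes with a 3′ UTR match to the miR-29 seed had a median log2 fold change of 0.04 (2202 genes) in WT/Floxed and of 0.08 (2205 genes) in L-Sirt1 KO, against 0.00 (11281 genes) and -0.01 (11334 genes) for genes with none.

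Srebf1 was lower on average with LNA29 in WT/Floxed livers, but the groups overlapped and the difference did not pass the test. The 8 LNA29 livers ran from 5919 to 21825 normalized counts, with a median of 11004. The saline livers held 12639.7, 18101, 16714, 12333 and 16039. So 5 of the 8 LNA29 livers lay below the lowest saline liver, while LNA29 replicate 5 lay above the highest. The log2 fold change was -0.44 (SE 0.25, 95% interval -0.97 to 0.08, limma adjusted p = 0.480), and an exact permutation test gave p = 0.144. Within the 3 flow cells the difference was -0.82, -0.23 and -0.36 on the log2 scale, and it was -0.62 in WT and -0.32 in floxed mice. The spread among LNA29 livers was wide, at 41.9% of the mean against 16.9% with saline.

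In livers labelled L-Sirt1 KO, Srebf1 held 17492, 12097, 20495 and 10645 normalized counts with saline and 20322, 10415, 22917 and 17145 with LNA29. Each group spanned about the same range. The fitted log2 fold change was 0.21 (95% interval -0.39 to 0.82, limma adjusted p = 0.808). Within flow cells it took both signs (-0.27, 0.92 and 0.22), each from 2 or 3 livers.

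Among the enzymes that SREBP1c is known to induce, some were called lower in WT/Floxed. Srebf1 was not called there, though its estimate was also below 0 (-0.44). Whether Srebf1 and the enzymes differed in their response was not tested. A gene-level count also pools the transcripts of Srebf1 and does not measure the SREBP1c protein. Of a list of 12 (Acly, Acaca, Acacb, Fasn, Elovl6, Scd1, Me1, Acss2, Gpam, Pnpla3, Fads1 and Fads2), the estimate was below 0 for 12 of 12 in WT/Floxed, with a median log2 fold change of -0.64, and 4 of 12 were called lower. These were the fatty acid elongase Elovl6 (-0.93, limma adjusted p = 0.0392), the acetyl-CoA makers Acss2 (-0.84, adjusted p = 0.172) and Acly (-0.78, adjusted p = 0.0925), and fatty acid synthase Fasn (-0.68, adjusted p = 0.132). In L-Sirt1 KO livers the estimate was again below 0 for 12 of 12, the median was -0.15 and 0 were called, or 1 (Me1) without saline replicate 4. In floxed mice alone 1 of 12 was called (Elovl6), and in WT mice alone 0 of 12. With each of the 13 WT/Floxed libraries left out in turn, Elovl6 was still called in 13 fits, Acly in 12, Fasn in 7 and Acss2 in 4. Of these calls 1 was left without saline replicate 3 and 2 without saline replicate 2 or LNA29 replicate 6, 7 or 8. The number of enzymes called ran from 1 to 6, since Acacb, Fads1 or Me1 joined them in some of these fits.

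The genes that process SREBP showed no call in any mouse comparison. Insig1, which retains SREBP in the endoplasmic reticulum and is itself an SREBP target, had a log2 fold change of -0.48 (SE 0.26, limma adjusted p = 0.457) in WT/Floxed and of 0.11 in L-Sirt1 KO. Its partner Insig2 stood at 0.16 and 0.32, and the escort protein gene Scap at 0.29 and 0.22. Srebf2, which drives the cholesterol branch, stood at -0.05 and 0.08. Over the 6 genes of this list, Mbtps1 and Mbtps2 included, the median was 0.05 and 0.10.

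**Figure D2:**
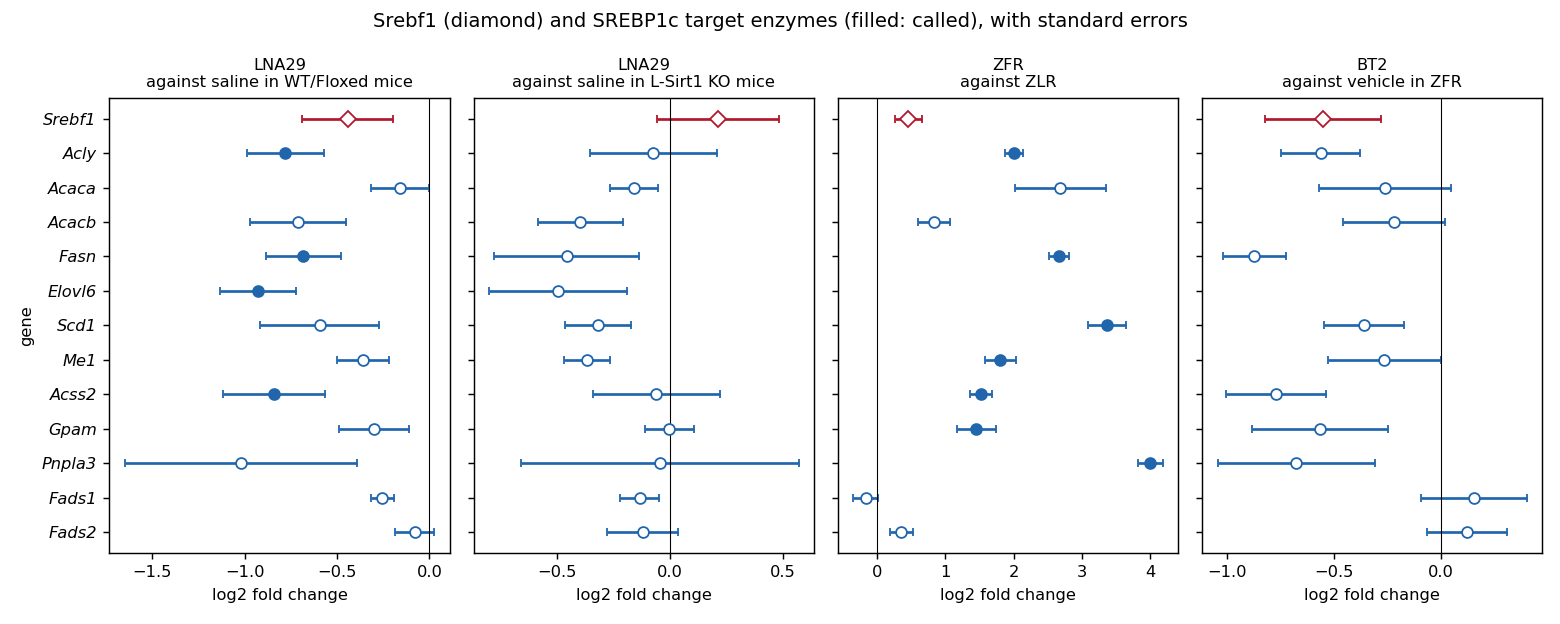
Log2 fold change with SE (x axis) of Srebf1 (diamond) and of the 12 enzymes induced by SREBP1c (y axis) in the 4 comparisons, 1 panel each, with filled symbols for genes that were called. With LNA29 the 12 enzymes lie below 0 in both mouse sets, and Srebf1 lies below 0 in WT/Floxed and above 0 in L-Sirt1 KO. In ZFR against ZLR 7 enzymes were called higher, and Srebf1 lies above 0 without a call. Differences between Srebf1 and the enzymes were not tested.

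Across the 21 mouse livers, Srebf1 varied together with these enzymes even inside the groups. With log2 values centred on the group means, the correlation between Srebf1 and the mean of the 12 enzymes was r = 0.682 (permutation within groups, adjusted p = 0.0130 over 5 relations), with Spearman's rho = 0.681 (permutation, adjusted p = 0.0135). Without the 2 livers farthest from the median of Srebf1, r was 0.526. Within flow cells r was 0.77 (n = 6), 0.56 (n = 8) and 0.83 (n = 7), and it was 0.68 in WT/Floxed and 0.70 in L-Sirt1 KO. Of the 12 enzymes 11 had a positive r, from 0.26 for Gpam to 0.84 for Pnpla3, and the desaturase Fads2 had one of -0.19. Fasn stood at 0.69 and Scd1 at 0.56. The points share their library, so anything that differs between libraries enters both axes.

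**Figure D3:**
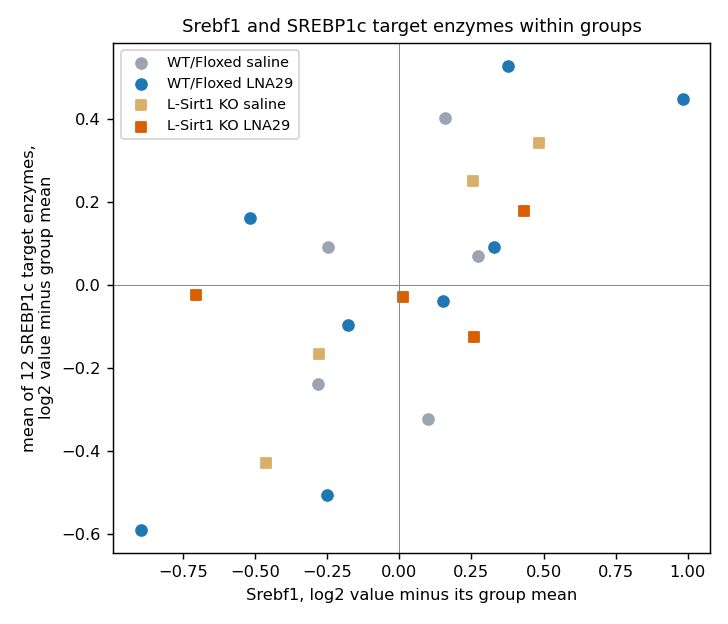
Log2 level of Srebf1 (x axis) against the mean log2 level of the 12 enzymes (y axis), each centred on its group mean, with 1 point for each of the 21 mouse livers and 1 symbol per group. Livers with more Srebf1 than their group tended to have more of the enzymes, with r = 0.682.

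The 3 genes whose pattern was most like that of Srebf1 over the 21 livers, among 12759 genes, were Nampt (r = 0.90), Stk38l (r = 0.88) and Atp8b1 (r = 0.86). They were picked as the highest values, so no test applies. Among the regulators themselves, Mlx was the one nearest to Srebf1 (r = 0.62).

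In the ChREBP branch, Mlxipl did not pass the test in either mouse set. In WT/Floxed the 8 LNA29 livers ran from 9366 to 12366 normalized counts with a median of 11015. The saline livers held 11953, 16677, 14408, 9111 and 10320.1, so that 2 were above and 1 was below the whole LNA29 range. In the fit this was a log2 fold change of -0.16 (95% interval -0.44 to 0.11, limma adjusted p = 0.652). In L-Sirt1 KO it was -0.18 (95% interval -0.46 to 0.10, adjusted p = 0.645), from 12819 ± 2249 with saline to 11231 ± 788 with LNA29 (SD, n = 4). Its partner Mlx differed by -0.13 (adjusted p = 0.684) and -0.09 (adjusted p = 0.862).

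Txnip was the most variable regulator in 3 of the 4 mouse groups, and its LNA29 mean lay above saline in the first mouse set and below it in the second, without passing the test in either. In WT/Floxed the LNA29 livers ran from 3093 to 14576 normalized counts, with a median of 6710.1. The saline livers held 8599.5, 3502, 4100.3, 9731 and 3414, and 5 of the 8 LNA29 livers lay inside their range. The log2 fold change was 0.38 (95% interval -0.36 to 1.13, limma adjusted p = 0.709). It was 0.13 in WT and 0.84 in floxed mice, the latter against 2 saline livers (3502 and 3414). Within flow cells it was 0.08, 0.44 and 1.10. In L-Sirt1 KO the saline livers held 4287, 13661, 12539 and 5452, and the LNA29 livers 3717, 7293, 5269 and 4834. The saline livers 2 and 3 were above each LNA29 liver there, and the other two lay among them. This gave a log2 fold change of -0.63 (95% interval -1.47 to 0.20, adjusted p = 0.574), and within flow cells it was 0.28, -1.37 and -0.77.

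Arrdc4 had the highest log2 fold change of the 10 regulators in L-Sirt1 KO livers, where its saline values were 1052, 859, 1318 and 1110.2 normalized counts. With LNA29 they were 1429.5, 2040.2, 1535 and 1215. Only LNA29 replicate 4 fell inside the saline range, and only saline replicate 3 inside that of LNA29. On the log2 scale the difference was 0.51 (SE 0.17, 95% interval 0.12 to 0.90), with p = 0.0155 before and 0.308 after limma's adjustment, and the exact permutation test gave p = 0.0571. Within flow cells the difference was 0.70, 0.84 and 0.01, from 2 or 3 livers each. In WT/Floxed, Arrdc4 ran from 839 to 2128 (median 1428) with LNA29, around saline values of 1580.0, 1132, 1345, 1246 and 1049, for a log2 fold change of 0.16 (adjusted p = 0.787). Arrdc4 is the regulator that carries the 3′ UTR seed match shown above, and it did not pass the call in either set.

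Txnip and Arrdc4 varied together between livers of a group, with r = 0.549 (permutation within groups, adjusted p = 0.0379) and rho = 0.532 (permutation, adjusted p = 0.0432). Without the 2 livers farthest from the median of Txnip, r was 0.384. Within flow cells r was -0.30 (n = 6), 0.85 (n = 8) and 0.66 (n = 7), so the relation did not hold in the first of them. In WT/Floxed r was 0.69 (n = 13) and in L-Sirt1 KO 0.20 (n = 8). The genes nearest to Txnip were Zfp36l2 (r = 0.90), Rgs16 (r = 0.88) and Maff (r = 0.85), and those nearest to Mlxipl were Gm21781 (r = 0.83), Firre (r = 0.83) and Gm14391 (r = 0.82), each picked as the highest of 12759.

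The glycolytic and lipogenic targets of ChREBP outside the alpha-arrestins gave 3 calls among 9 in WT/Floxed. The hepatokine Fgf21 rose by 1.90 on the log2 scale (limma adjusted p = 0.171), from 87.5 ± 73.5 to 307.0 ± 238 normalized counts (SD, n = 5 and 8). The lipogenic cofactor Thrsp fell by 1.63 (adjusted p = 0.0509) and ketohexokinase Khk fell by 0.38 (adjusted p = 0.0561). The median was -0.17, with 7 of 9 below 0. Thrsp and Khk were still called with each library left out in turn, and Fgf21 in 4 of 13 such fits, those without saline replicate 1 or LNA29 replicate 1, 3 or 4. In WT mice alone 1 of the 9 was called, the liver pyruvate kinase Pklr, and in floxed mice alone the 3 named above. In L-Sirt1 KO the catalytic subunit of glucose-6-phosphatase, G6pc, was the only call (0.75, adjusted p = 0.0538), with 8 of 9 estimates below 0 and a median of -0.34. Without saline replicate 3 there were 3 calls (Fgf21, G6pc and Gpd1). Fgf21 and Gpd1 were among the estimates below 0 in the fit of all L-Sirt1 KO libraries. From liver to liver, no relation of Mlxipl with these genes passed the test (r = -0.181, permutation adjusted p = 0.748, rho = -0.0364, permutation adjusted p = 0.898), and r was 0.253 without the 2 farthest livers. The mouse sets differed in sign, with r of -0.34 in WT/Floxed (n = 13) and of 0.59 in L-Sirt1 KO (n = 8), which were not tested apart.

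Of the nuclear receptors, Nr1h3 came closest to a call in WT/Floxed. Its LNA29 values lay in a narrow band of 4806 to 5324 normalized counts, with a median of 4990.2. The saline values were 5839, 4783, 6413, 6145 and 6408. Thus 4 of the 5 saline livers lay above the whole LNA29 band, and floxed replicate 2 lay just below it. The log2 fold change was -0.23 (SE 0.07, 95% interval -0.38 to -0.08, limma adjusted p = 0.152), an exact permutation test gave p = 0.00699, and the size, 0.852 of the saline level, kept it outside the fold limit of the call. Without saline replicate 2 it was called (-0.31, adjusted p = 0.0229). Within flow cells the difference was -0.06, -0.33 and -0.38, and it was -0.28 in WT and -0.15 in floxed mice. In L-Sirt1 KO the saline livers held 5476, 6251, 5679.9 and 6838 and the LNA29 livers 5126, 5004, 6065 and 6133, which overlapped (-0.12, adjusted p = 0.716).

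Nr1h2 did not pass the test in either set. Its mean was 2281 ± 187 normalized counts with LNA29 and 2165.7 ± 160.5 with saline in WT/Floxed (log2 fold change 0.07, limma adjusted p = 0.751). In L-Sirt1 KO it was 2465 ± 154 against 2295 ± 275 (0.11, adjusted p = 0.737). Of 8 LXR target genes the sterol exporter Abcg5 alone was called in WT/Floxed, and it rose (0.46, adjusted p = 0.150). Between livers, no relation of Nr1h3 with the mean of these 8 genes passed the test (r = 0.0237, permutation adjusted p = 0.934, rho = -0.0299, permutation adjusted p = 0.898), and r was -0.135 without the 2 farthest livers. It was 0.21 in WT/Floxed (n = 13) and -0.37 in L-Sirt1 KO (n = 8). Among the partners and coregulators of these receptors, Rxrg, a retinoid X receptor gene, fell by 0.48 in WT/Floxed (adjusted p = 0.0689).

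Pparg was the least abundant regulator. In WT/Floxed it ran from 364 to 689.7 normalized counts (median 575) with LNA29 and held 641, 612, 569, 672 and 640.2 with saline. Here 4 of the 8 LNA29 livers lay below the lowest saline liver and 1 above the highest. In the fit this was a log2 fold change of -0.19 (95% interval -0.47 to 0.09, limma adjusted p = 0.589), and it was -0.22 (95% interval -0.66 to 0.22, adjusted p = 0.728) in L-Sirt1 KO. Its target list gave 1 call in L-Sirt1 KO, the intestinal-type fatty acid binding protein Fabp2 (-0.63, adjusted p = 0.139), with 6 of 6 tested genes below 0 and a median of -0.57. Adipocyte markers (Adipoq, Plin1, Lep and Cfd) summed to 1.76 to 145 normalized counts in WT/Floxed livers and to 0.975 to 1106 in L-Sirt1 KO livers, and Lep was at 0 in all 13 WT/Floxed libraries. Their part in the Pparg values was not tested. In bulk liver, fewer cells of a type and less RNA per cell cannot be told apart. Pparg and 6 of its targets had r = -0.393 between livers (permutation adjusted p = 0.208, rho = -0.326, permutation adjusted p = 0.324), and r was -0.160 without the 2 farthest livers. It was -0.73 in WT/Floxed (n = 13) and -0.06 in L-Sirt1 KO (n = 8), which were not tested apart. The genes nearest to Pparg, picked as the highest of 12759, were Gm10169 (r = 0.75), Slc25a40 (r = 0.72) and Dtx1 (r = 0.71).

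Markers of other liver cells differed between some of these groups. In WT/Floxed the Kupffer cell list summed to 5263 to 28207 normalized counts with LNA29 and to 9478 to 16158 with saline, with 0 of 6 called. In L-Sirt1 KO the sums were 9292 to 11946 with LNA29 and 11561 to 13769 with saline, and Vsig4 and Clec4f were called lower. Lyve1, an endothelial marker, was called lower in both sets (-0.51 and -1.17). The other 3 endothelial markers were not called, with Kdr at -0.17 and 0.00, Stab2 at 0.03 and 0.08 and Pecam1 at -0.02 and -0.05. The part of these cells in the regulators' values was not tested.

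The E-box binding proteins did not pass the test. Usf2 held 3934 ± 299 normalized counts with LNA29 and 3638 ± 303 with saline in WT/Floxed, with 4 of 8 LNA29 livers above the highest saline liver (log2 fold change 0.11, 95% interval -0.04 to 0.27, limma adjusted p = 0.550). In L-Sirt1 KO it held 4123 ± 254 against 4236 ± 417 (-0.04, 95% interval -0.24 to 0.17, adjusted p = 0.913). Usf1 differed by 0.04 (95% interval -0.15 to 0.22) in WT/Floxed and by -0.05 (95% interval -0.29 to 0.19) in L-Sirt1 KO.

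The response to LNA29 was compared between the mouse sets as a difference of the log2 fold changes. WT/Floxed included wild-type mice younger than the L-Sirt1 KO mice, so this difference mixes the genotype label with age and background. None of the 10 regulators reached the limit (adjusted p under 0.2) in limma's interaction term, and 0 had an unadjusted p under 0.05, beside 7 of 15601 genes at the limit and 9.14% with p under 0.05. The 7 ran from 0 to 233 with each library left out in turn (200 without WT/Floxed LNA29 replicate 1, 233 without L-Sirt1 KO saline replicate 3), while the regulators stayed at 0. The furthest were Txnip, at -1.02 (L-Sirt1 KO minus WT/Floxed, 95% interval -2.20 to 0.16, adjusted p = 0.613), and Srebf1, at 0.66 (95% interval -0.18 to 1.49, adjusted p = 0.652). Arrdc4 differed by 0.35 (95% interval -0.26 to 0.96, adjusted p = 0.769) and Nr1h3 by 0.11 (95% interval -0.14 to 0.36). The intervals of Txnip and Srebf1 leave room for differences of more than 1 on the log2 scale. Floxed mice alone, of the same age range as the L-Sirt1 KO mice, were also compared with them. In that fit 69 of 15561 genes and 0 of 10 regulators reached the limit.

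**Figure D4:**
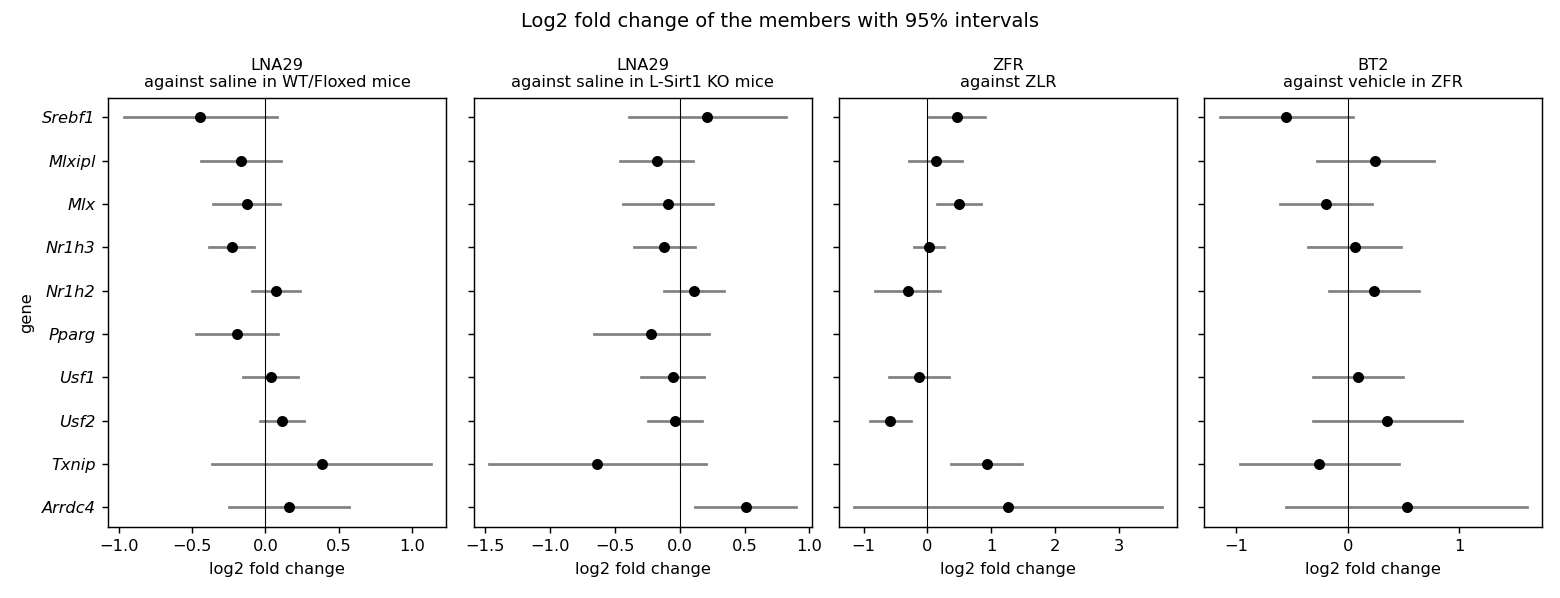
Log2 fold change of each regulator (y axis) with its 95% interval (x axis) in the 4 comparisons, 1 panel each. In mice the intervals of Nr1h3 in WT/Floxed and of Arrdc4 in L-Sirt1 KO clear 0, and in ZFR against ZLR those of Srebf1, Mlx, Txnip and Usf2 do. Pparg is absent in rats, where its mean was under 10.

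What accompanies obesity was asked with ZFR against ZLR, where a gene was called at a limma adjusted p under 0.05. Of 8633 genes tested 367 (4.25%) were called, and of the 9 regulators tested 0 were. The 367 was 234, 229, 225 and 235 without ZFR replicate 1, 2, 3 and 4, and 272 to 379 without each ZLR library. The regulators included 4 of 9 with an unadjusted p under 0.05 (Srebf1, Mlx, Usf2 and Txnip), against 16.6% of all genes, and 3 of 9 whose groups did not overlap, against 14.5% of all genes with groups that did not overlap. Their median absolute log2 fold change was 0.46, beside 0.32 over all genes tested. With 4 against 4 the smallest exact permutation p is 0.0286.

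Txnip was higher in each obese liver, without passing the limit of the call. The ZFR values were 243, 194, 397 and 199 normalized counts. The ZLR values were 145, 99.1, 116 and 167, of which the last pair, from the shallow libraries, rested on 11 and 16 reads. Each ZFR liver was above each ZLR liver. The difference came to a log2 fold change of 0.93 (SE 0.25, 95% interval 0.37 to 1.49, limma adjusted p = 0.0750), and the exact permutation test gave its smallest p, 0.0286. It was 0.85 and 1.01 in the 2 flow cells, and 1.04 (adjusted p = 0.0780) without the libraries under 500000 reads. Arrdc4, by contrast, was low in rat liver, with 32.4, 55.5, 13.4 and 27.0 in ZFR and 23.1, 16.1, 0 and 54.7 in ZLR, where the last pair came from 0 and 5 reads. No fold is given for it, since the fitted value rests on the library at 0.

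Mlx was likewise higher in each ZFR liver, with 117, 108, 113 and 137 normalized counts against 92.7, 97.0, 73.7 and 73.1 in ZLR. The groups did not overlap, but the lowest ZLR values came from 7 reads in each shallow library. The log2 fold change was 0.50 (SE 0.15, 95% interval 0.16 to 0.84, limma adjusted p = 0.119, exact permutation p = 0.0286). Without those libraries it was 0.32 (adjusted p = 0.264), and by flow cell it was 0.25 and 0.75. Mlxipl held 253, 235, 146 and 234 in ZFR against 169.6, 189, 234 and 189.8 in ZLR, which overlapped (0.13, 95% interval -0.29 to 0.54, adjusted p = 0.745).

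Usf2 went the other way. It held 94.7, 100.01, 85.7 and 103 normalized counts in ZFR against 129, 125, 158 and 167 in ZLR, so that each obese liver was below each lean one. The highest ZLR values again belonged to the shallow libraries, with 15 and 16 reads. On the log2 scale the difference was -0.58 (SE 0.14, 95% interval -0.90 to -0.26, limma adjusted p = 0.0555, exact permutation p = 0.0286), it was -0.38 and -0.79 by flow cell, and without the shallow libraries it was -0.40 (adjusted p = 0.131). Usf1 held 41.96 ± 2.52 in ZFR and 46.9 ± 10.2 in ZLR (-0.13, adjusted p = 0.768).

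Srebf1 did not pass the test either, with 1786, 1199.6, 1325 and 1559.8 normalized counts in ZFR and 1387, 1036, 727 and 1181 in ZLR. Of the ZFR livers 2 exceeded the highest ZLR liver, so the groups overlapped. The fitted log2 fold change was 0.46 (95% interval 0.02 to 0.90, limma adjusted p = 0.282), the exact permutation test gave p = 0.114, and without the shallow libraries the log2 fold change was 0.27 (adjusted p = 0.497). The receptors showed no call. Nr1h3 held 262 ± 15.1 against 258 ± 21.4 (0.02, 95% interval -0.22 to 0.26), and Nr1h2 held 69.9 ± 15.5 against 87.1 ± 21.5 (-0.31, adjusted p = 0.526).

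Many targets of SREBP1c and ChREBP were called higher in obesity. Srebf1 and Mlxipl were not called, though their estimates were also above 0 (0.46 and 0.13). Whether these regulators and their targets differed in size of change was not tested. Of the 11 SREBP1c enzymes tested in rats 7 were called higher, led by the lipid droplet protein gene Pnpla3 (log2 fold change 4.00), the desaturase Scd (3.37), Fasn (2.66), Acly (2.01) and malic enzyme Me1 (1.81), and the median was 1.81. Without the shallow libraries 8 were called. The sterol sensor genes did not pass the test, with Insig1 at 0.33, Insig2 at -0.73, Scap at 0.07 and Srebf2 at -0.21. Of 9 ChREBP targets 4 were called higher, namely Thrsp (1.77), the liver pyruvate kinase Pklr (1.14), Tkfc (0.81) and the glucose transporter Slc2a2 (0.48), and 2 (Thrsp and Pklr) without the shallow libraries. Tkfc was still called in 2 of the 8 fits that leave out 1 library. Of the 5 LXR targets tested 1 was called, the bile acid enzyme Cyp7a1, which rose (1.34), and the median was 0.15. Of the 3 PPAR-gamma targets tested 1 was called, the fatty acid transporter Cd36, which rose (1.72, limma adjusted p = 0.00251).

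Clock genes differed strongly between the lean and obese livers, and this is given beside the result because lipogenic regulators cycle over the day. Morning-phase Npas2 and Arntl were called lower in ZFR (-3.65 and -2.46), and evening-phase Dbp, Per3, Per2 and Tef were called higher (5.01, 4.30, 2.11 and 1.19). The medians over the 4 morning and the 6 evening genes tested were -1.73 and 1.65. Whether the phase of the livers had a part in the values of Txnip, Mlx, Usf2 or Srebf1 was not tested.

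**Figure D5:**
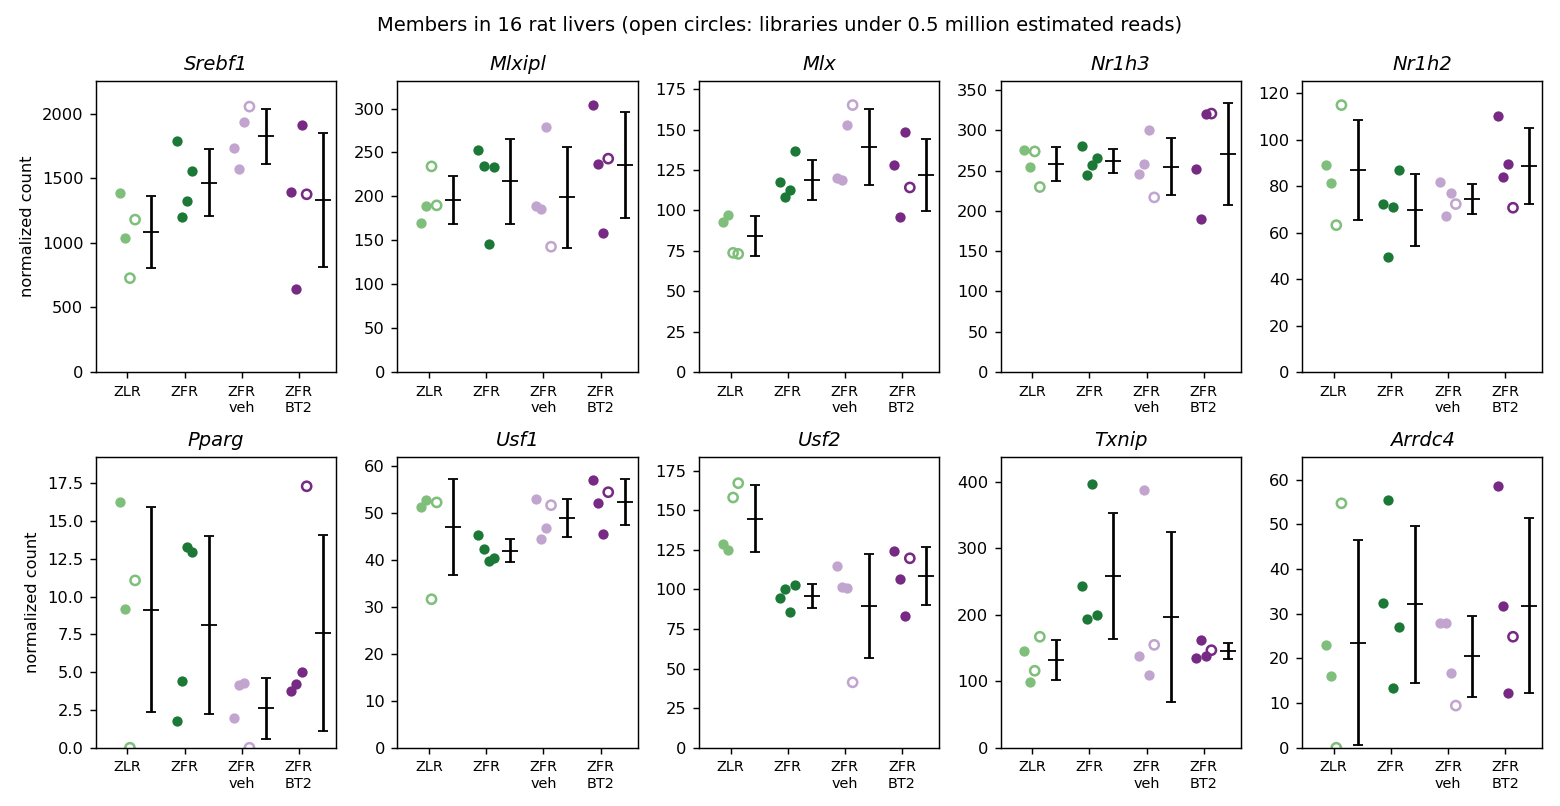
Normalized counts of the regulators in the 16 rat livers (y axis, 1 panel per gene), by group on the x axis, with bars at the mean ± SD and open circles for the 4 libraries under 500000 estimated reads. Txnip and Mlx lie higher and Usf2 lower in ZFR than in ZLR, with no overlap, and 3 of the 4 BT2 livers lie below the vehicle livers for Srebf1.

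Whether BT2 alters the regulators in obese rats was the last comparison. Of 8405 genes 0 (0%) were called at a limma adjusted p under 0.05, with 332 (3.95%) at an unadjusted p under 0.05, and 0 of the 9 regulators tested were called, with 0 at an unadjusted p under 0.05. The groups did not overlap for 2.96% of all genes and overlapped for each regulator. Srebf1 stood furthest from 0 among the well-measured ones. The vehicle livers held 1737, 1576, 1934 and 2056 normalized counts. The BT2 livers held 1392, 644, 1913 and 1377, so 3 of 4 lay below the lowest vehicle liver and replicate 3 lay within the vehicle range. The log2 fold change was -0.55 (SE 0.27, 95% interval -1.15 to 0.05, limma adjusted p = 0.898), with an exact permutation p of 0.0857, and by flow cell it was -0.80 and -0.30. The estimate was -0.24 without BT2 replicate 2, the liver at 644, and -0.76 without BT2 replicate 3.

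The SREBP1c enzymes shared the sign of Srebf1 with BT2, as 9 of 11 estimates were below 0 with a median of -0.36 and 0 called. The 9 ChREBP targets were below 0 in 9 of 9, with a median of -0.31 and 0 called. Insig1 stood at -0.32, Insig2 at 0.29, Scap at 0.28 and Srebf2 at 0.00. Morning clock genes had a median of 1.02 and evening ones of -0.77 in the same comparison, also with 0 called, and their part was not tested.

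Txnip held 135, 163, 138 and 147 normalized counts with BT2 and 138, 388, 110.0 and 155 with vehicle, so the difference in means rested on vehicle replicate 2 (-0.26, 95% interval -0.97 to 0.46). Arrdc4 held 58.5, 31.7, 12.2 and 24.8 with BT2 and 27.8, 27.8, 16.7 and 9.43 with vehicle, which overlapped. Mlxipl held 236 ± 60.0 with BT2 against 199 ± 57.2 with vehicle (log2 fold change 0.25, 95% interval -0.28 to 0.77). Its partner Mlx held 122 ± 22.2 against 139 ± 23.4 (-0.20, 95% interval -0.61 to 0.21). Neither of the dimer partners differed beyond the spread between livers. Nr1h3 held 271 ± 62.9 against 255 ± 34.8 (0.06, 95% interval -0.35 to 0.48). Nr1h2 held 88.7 ± 16.5 against 74.5 ± 6.31 (0.24, 95% interval -0.17 to 0.64), and 3 of 4 BT2 livers lay above the highest vehicle liver. For the USF genes, Usf1 held 52.2 ± 4.89 against 48.9 ± 4.07 (0.09, 95% interval -0.31 to 0.50). Usf2 differed by 0.36 on the log2 scale, and its vehicle mean of 89.6 ± 32.8 included 1 library at 41.3 that rested on 4 reads.

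Pparg was barely detected in rat liver, with 0 to 17.3 normalized counts across the 16 libraries. It fell under the minimum mean of 10 and was not tested. The ZFR and ZLR values (1.78, 4.39, 13.3 and 12.9 against 16.3, 9.19, 0 and 11.1) overlapped, and the highest value of all, 17.3 in BT2 replicate 4, rested on 3 reads. In the deepest library of each group, ZLR replicate 1 and ZFR replicate 1, Pparg rested on 425.0 and 55.2 reads.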

How the data were processed

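RNA was sequenced as single-end reads from polyA libraries of 37 livers. Per the study's methods, the authors aligned reads with STAR to mm10 or rn6, quantified genes with Salmon and divided the estimates by DESeq2 size factors within each of 4 deposited tables. The deposited signal values are therefore normalized counts, not raw counts. Whole reads could not be recovered (66.1% to 89.0% of low values were whole within 0.02 reads), so no count model was used, and depth was estimated from the value of 1 read. The authors left out 1 floxed saline mouse. Intervals rest on the spread between libraries, which holds differences between animals and counting error together. The main fit had no separate term for counting error. No column of per-sample values lacked a sample.

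Each comparison was fitted within its own table with limma 3.58.1 (R 4.3.3, trended empirical Bayes) on log2(normalized count + 1), over genes with a mean of at least 10, with Benjamini-Hochberg adjustment over all of them. Adding 1 draws the fold changes of low genes toward 0, but a shallow library at 0 can push them outward, as for Arrdc4 in ZFR against ZLR. The study's mouse criteria and, in rats, an adjusted p under 0.05 set the calls. Exact two-sided permutation tests ran over 1287 splits (8 against 5) or 70 splits (4 against 4). Relations used 100000 two-sided permutations within groups. The fit was tested on simulated data. Entries with a blank name (381 of 48440 mouse and 201 of 32750 rat entries, under 0.05% of counts) or a repeated name (130 and 4523, the latter 2.12% to 2.17% of rat counts) were left out. Figures were drawn with matplotlib 3.10.9.

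The regulators, the gene lists and the tests were chosen with earlier results of these data known. Named were all 10 regulators, every called gene of a list (at most 5), Srebf2, Scap, Insig1 and Insig2, and the 3 genes nearest to Srebf1, Mlxipl, Pparg and Txnip. Of the SREBP1c enzyme list 1 gene is not reported here and was left out of its counts, medians and mean. In the group comparisons, the regulators and the calls over all genes, SREBP1c enzymes and ChREBP targets were also computed under alternatives. These were TMM scaling, a pseudocount of 10, no limit on the mean, and weights by library quality or (rats) depth. Flow cell, background or replicate number was also put in the model. WT or floxed mice alone, other call limits and each library left out were run too. The difference between the mouse sets was not computed with TMM scaling, without the limit on the mean or with background in the model. Relations between livers were recomputed only without the farthest livers and within flow cells or mouse sets. The nearest genes and the levels per kb had no alternative run.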

Additional observations from a re-analysis of the deposited data

Results flagged for a closer look

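Each regulator in each of the 8 groups was checked for a library far from the rest, by the gap to its nearest neighbour over the range of the group. Of 80 sets 5 (6.25%) passed the 95% limit of Dixon's test, and chance flags about 1 in 20. Nr1h2 in WT/Floxed LNA29 replicate 3 was at 1842 normalized counts, with the nearest library at 2269, a gap of 0.718 of the range. Mlxipl in ZFR replicate 3 was at 146 with the nearest at 234 (0.853 of the range), and Usf1 in ZLR replicate 3, a library under 500000 reads, was at 31.6 with the nearest at 51.2 (0.947). Pparg in ZFR BT2 replicate 4 was at 17.3 with the nearest at 5.00 (0.830), from 3 reads. Usf2 in ZFR vehicle replicate 4 was at 41.3 with the nearest at 101 (0.875), from 4 reads.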

How the results depend on the processing

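The number of regulators called was 0 in each comparison as reported. In L-Sirt1 KO mice, with BT2, and for the difference between the mouse sets, it stayed at 0 under each alternative run. In WT/Floxed it ranged from 0 to 1 when libraries were left out, and the 1 was Nr1h3 without saline replicate 2. In ZFR against ZLR it was 1 with TMM scaling (Usf2, adjusted p = 0.0496), 3 with sample quality weights (Srebf1, Usf2 and Txnip), 1 with weights from depth (Txnip, adjusted p = 0.0380) and 3 under the mouse criteria (Mlx, Txnip and Usf2), and 0 with each library left out in turn. The cause was not tested. Leaving out the libraries under 500000 reads, and the counts of called SREBP1c enzymes and ChREBP targets under the alternatives, were chosen after seeing the data.

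Of 294 log2 fold changes of single regulators under alternatives other than leaving out a library 284 kept direction and call, 5 turned and 5 gained a call. Those that turned were Usf1 in floxed mice alone (-0.0616), Nr1h3 without the shallow libraries in ZFR against ZLR (-0.0176), and with BT2 Nr1h3 under quality weights (-0.117) and without the shallow library pair (-0.103), and Usf2 without it (-0.0290). The difference between the mouse sets turned with quality weights for Mlxipl (0.0236), Mlx (-0.0217) and Nr1h2 (-0.0299), and with floxed mice alone for Mlxipl (0.0742) and Usf1 (0.00926).

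With libraries left out in turn, the range of Usf1 in WT/Floxed crossed 0 (-0.00357 to 0.0775), as did those that follow. In L-Sirt1 KO they were -0.122 to 0.00373 for Usf1, -0.196 to 0.0629 for Mlx and -0.0933 to 0.0178 for Usf2. In ZFR against ZLR Nr1h3 ran from -0.0335 to 0.0539, and with BT2 Nr1h3 ran from -0.0287 to 0.223 and Txnip from -0.474 to 0.128. The difference between the mouse sets ran from -0.125 to 0.0934 for Mlxipl, -0.0415 to 0.1004 for Nr1h2, -0.0715 to 0.189 for Mlx and -0.172 to 0.118 for Pparg.

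Correlations between the deviations of same-numbered libraries ran from -0.349 to 0.282, and in no comparison were they over 0.1 for every pair, so the replicate numbers were read as names. With BT2 3 of 4 pairs were over 0.1 and each was its library's best match, and the same held for 2 of 4 in ZFR against ZLR and 1 of 4 in L-Sirt1 KO. In WT/Floxed 2 of 5 pairs were over 0.1, and 1 of them was a best match. With a replicate block 0 regulators were called in each comparison, the difference between the mouse sets turned for Pparg (0.0129), and 56, 145, 221 and 0 genes were called in WT/Floxed, L-Sirt1 KO, ZFR and BT2, with 0 of 12 SREBP1c enzymes and 0 of 9 ChREBP targets in WT/Floxed. Calls over all genes also moved with sample quality weights, to 1308, 804 and 1169 in the first 3 comparisons, and to 1220 for the difference between the mouse sets. Depth limits Arrdc4, Pparg and the shallow rat libraries, where 1 read is worth up to 10.5 normalized counts.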

Other observations

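Other lists around the regulators held few calls. Of the relatives of MLX and MAX, 0 of 8 were called in either mouse set and 0 in rats, and with BT2 5 of 6 estimates lay above 0 with a median log2 fold change of 0.68. The counts of this list were low, however. The 7 genes of it found in rats summed to 241 to 362 normalized counts with BT2 (median 269) and to 231 to 293 with vehicle (median 287), which overlapped. Of the other alpha-arrestins 0 were called in any comparison. Genes induced by fasting were above 0 in 6 of 6 in WT/Floxed (median 0.71, 0 called) and in 6 of 6 with BT2 (median 0.56, 0 called), while in L-Sirt1 KO 3 of 6 were above 0 and 3 below (median 0.14), with 1 call, in which Igfbp1, an insulin-repressed liver gene, rose by 1.19 on the log2 scale (limma adjusted p = 0.0603). Clock genes had medians of 0.80 (morning) and -0.90 (evening) in L-Sirt1 KO and of 0.22 and -0.33 in WT/Floxed, with 0 called in each.

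Hepatocyte genes shifted in places. Apoa1 rose in WT/Floxed (0.51, limma adjusted p = 0.0312), and Ttr and Apob fell in ZFR (-0.43 and -0.39). Stab2, an endothelial marker, rose in ZFR (1.16), while the other 2 endothelial markers tested stood at -0.31 (Kdr) and -0.08 (Lyve1) and were not called. Lymphocyte and pancreatic acinar markers summed to at most 22.4 normalized counts in the rat livers. Mouse sums were higher. In WT/Floxed the acinar markers summed to 0 to 166 with LNA29 and to 0.944 to 778 with saline (median log2 fold change -1.76, 0 called). The lymphocyte markers summed to 120 to 334 with LNA29 and to 165 to 510 with saline there. In L-Sirt1 KO the acinar sums reached 29.8 with LNA29 and 9.30 with saline, and the lymphocyte sums 305 and 395. Their part in the regulators' values was not tested.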
